A study of Homo sapiens with 8 samples.

Results

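The genes described here are 8 genes of cholesterol synthesis and of its control in A431 cells, a human cutaneous squamous cell carcinoma line, after miR-634. They are AACS, HMGCS1, IDI1, FDFT1, SQLE, DHCR7, INSIG1 and SREBF2. They were taken by name, and AACS was chosen by its measured fold change of enrichment in these same arrays, so its values are given as a description without a test. All 8 were among the 10956 genes measured, of 22439 genes named on the array. The cells had received miR-NC, the negative control miRNA, or miR-634, each at 10 nM for 24 h. RNA bound to AGO2, the Argonaute protein that carries miRNAs, was taken by RNP immunoprecipitation (RIP) and set against the input. Input and RIP of miR-NC cells and input and RIP of miR-634 cells made up the 4 groups, with 2 arrays each. The input is total RNA in the study's methods, while its labels name normal rabbit IgG as the antibody. All groups were of the same single cell line and of a miRNA supplied from outside the cell, and nothing says whether the arrays of a group came from separate transfections, so that p-values may measure technical spread only.

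Cells make cholesterol from acetyl-CoA through acetoacetyl-CoA, HMG-CoA and mevalonate, then through isoprenoids to squalene and the sterols. The supply is held steady by SREBP-2, the product of SREBF2, a membrane-bound transcription factor that is escorted by SCAP to the Golgi and cut there when sterols are low, and then switches on the genes of sterol synthesis and uptake. INSIG1 holds SCAP back in the endoplasmic reticulum when sterols are high, and is itself an SREBP target. AACS joins acetoacetate, a ketone body, to CoA in the cytosol and so feeds the pathway at its start. None of the 8 genes encodes an uptake protein, so uptake is described through a list of other genes of uptake and transport.

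The miRNA that differs between the groups is shown first, as RefSeq gives it for GRCh38.p14 at chr17:66787132-66787153 on the plus strand. It has 22 bases, and the capitals mark the seed, bases 2 to 8, by which a miRNA pairs with its targets.
hsa-miR-634: aACCAGCAccccaacuuuggac
Matches of this seed in the transcripts of the 8 genes were not analysed here.

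A level is the log2 intensity of a probe relative to the 75th percentile of its array, and levels are compared only within a probe. The enrichment is the RIP level minus the input level, and the fold change of enrichment is the enrichment in miR-634 cells over that in miR-NC cells. The median spread between the arrays of a group was 0.0353 to 0.0597 (SD, log2). The share of spots well above background was 45.6% to 45.8% for the input, 33.6% and 34.5% for the RIP of miR-NC cells, and 40.0% for both arrays of the RIP of miR-634 cells. This share moves with the RIP comparison, and its part in the results was not tested. Of 7 markers of the A431 line, 7 were well above background on all 4 input arrays, and of 6 markers of other cell types none was. Of these 6, PTPRC was well above background on 3 input arrays, COL1A1 on 1, and the other 4 on none. APIP, which the study names as a target of miR-634, had a fold change of enrichment of 8.96 (adjusted p = 1.42e-06, limma). Input and RIP arrays lay in different rows of the slide and the miR-NC and miR-634 arrays in different columns, so position and group cannot be told apart.

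The zero of these scales depends on how the arrays are scaled. The fold change of enrichment of the median gene was -0.22 on the log2 scale, against 0.89 when the arrays were scaled to their spike-in probes. With spike-in scaling, the median RIP change was 0.68 in place of -0.18 and the median input change -0.24 in place of -0.0041. In the fit used here, 3077 genes had a higher and 4743 a lower enrichment in miR-634 cells, against 7314 and 176 with spike-in scaling. The RIP was higher for 3384 and lower for 5097 genes, against 4044 and 3722 with the authors' processed values and 7271 and 357 with spike-in scaling. The input was higher for 1285 and lower for 1323 genes, against 1071 and 664 with the authors' values and 25 and 845 with spike-in scaling. Distances to the median gene are therefore given beside the fold change of enrichment of each of the 8 genes.

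After miR-634, the 8 genes did not move as a block. The fold change of enrichment was above 1 for AACS, INSIG1, SQLE, SREBF2 and HMGCS1, and below 1 for IDI1, DHCR7 and FDFT1. Of the 7 genes tested, 3 rose (INSIG1, SQLE and SREBF2) and 3 fell (IDI1, DHCR7 and FDFT1), where 28.1% of all measured genes rose and 43.3% fell (limma, adjusted p under 0.05). With spike-in scaling, the sign of the 3 falls turned, and 6 of the 7 genes rose and 0 fell. Among the 3 falls, only that of DHCR7 kept its call under every other alternative run. HMGCS1 did not pass the test (adjusted p = 0.0814). Among 7 genes, the falls are near the share of all genes and the rises about 1 gene above it.

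**Figure D1:**
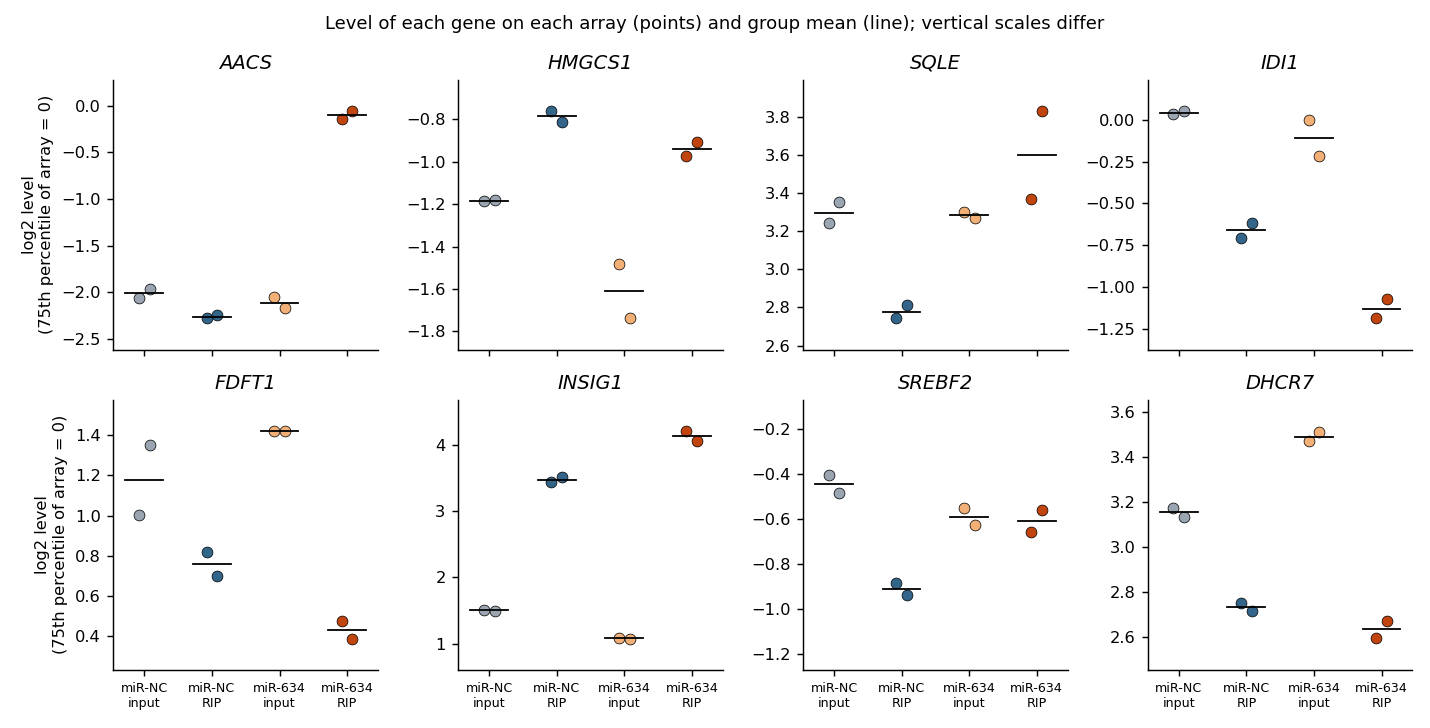
Levels of the 8 genes on each array (points, log2 relative to the array's 75th percentile) and the mean of each group (line), with 2 arrays in each group and a separate vertical scale for each gene. AACS stands at -0.14 and -0.06 on the miR-634 RIP arrays and between -2.28 and -1.96 on the other arrays, whereas DHCR7 is highest on the miR-634 input arrays, at 3.47 and 3.51.

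AACS was at almost the same level on 6 of the 8 arrays and stood apart on the miR-634 RIP arrays. Its input level was -2.06 and -1.96 in miR-NC cells and -2.05 and -2.17 in miR-634 cells. In the RIP it was -2.28 and -2.24 in miR-NC cells and -0.14 and -0.06 in miR-634 cells. The input groups overlapped, and the RIP groups lay far apart. The RIP of miR-634 cells was thus 4.47-fold that of miR-NC cells, and the input 0.935-fold. The enrichment was 0.842-fold in miR-NC cells and 4.02-fold in miR-634 cells, which gives a fold change of enrichment of 4.78, or 2.26 on the log2 scale. This is 2.47 above the median gene, and 286 of the 10956 genes had a larger fold change of enrichment. Over 7 ways of scaling the arrays, the distance of AACS to the median gene was 2.11 to 2.47. A second, dim AACS probe, also for NM_023928, was not well above background on either miR-NC RIP array. For it the miR-634 RIP was at least 3.39-fold the miR-NC RIP, the latter set at the lowest signal well above background on its arrays.

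INSIG1, the sterol sensor that retains SCAP, was the most enriched of the 8 genes in both kinds of cells. The input level of INSIG1 was 1.51 and 1.49 in miR-NC cells and fell to 1.08 and 1.08 in miR-634 cells. Its RIP level rose in the opposite direction, from 3.44 and 3.51 to 4.21 and 4.07. Neither pair of groups overlapped. The input was 0.746-fold (adjusted p = 0.0054) and the RIP 1.58-fold (adjusted p = 8.2e-05). The enrichment went from 3.93-fold to 8.33-fold, a fold change of 2.12 (log2 1.09, SE 0.086, adjusted p = 6.32e-05), which is 1.30 above the median gene on the log2 scale. On that scale, -0.42 of the input and 0.66 of the RIP make up this change. Of the 10956 genes, 102 were more enriched than INSIG1 in miR-634 cells and 288 in miR-NC cells. With spike-in scaling, which placed the enrichment of the median gene in miR-NC cells at -2.71 on the log2 scale, INSIG1 stood at -0.61 there, and its rise of enrichment remained.

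SREBF2, which encodes SREBP-2, had a smaller rise. SREBF2 input was at -0.40 and -0.48 in miR-NC cells and -0.55 and -0.62 in miR-634 cells, a difference that did not pass the test (adjusted p = 0.129). SREBF2 RIP was at -0.88 and -0.94 in miR-NC cells and -0.65 and -0.56 in miR-634 cells, so the RIP groups were apart. The RIP rose 1.23-fold (adjusted p = 0.0032) and the enrichment 1.36-fold (log2 0.45, SE 0.0839, adjusted p = 0.00305), or 0.67 above the median gene on the log2 scale. SREBF2 was below its input in the RIP of miR-NC cells, by -0.47 on the log2 scale (adjusted p = 0.000369). In miR-634 cells it was level with its input, at -0.02 (adjusted p = 0.788). With spike-in scaling SREBF2 was below its input there, at -1.5 (adjusted p = 2.06e-13), where the median gene was at -1.655.

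Among the enzymes, SQLE rose in the RIP and in enrichment. SQLE encodes squalene epoxidase, which puts the first oxygen onto squalene. In the input, SQLE was at 3.24 and 3.35 in miR-NC cells and 3.30 and 3.27 in miR-634 cells, so the input groups overlapped. In the RIP, SQLE was at 2.74 and 2.81 in miR-NC cells and 3.37 and 3.83 in miR-634 cells. The miR-634 RIP arrays thus differed from each other more than those of any other group, and both lay above the miR-NC RIP arrays. The RIP rose 1.77-fold (adjusted p = 0.00173) and the enrichment 1.78-fold (log2 0.84, SE 0.20, adjusted p = 0.00901), or 1.05 above the median gene on the log2 scale. When each array was left out in turn, the log2 fold change of enrichment of SQLE was 0.60 to 1.07. SQLE went from below its input in miR-NC cells (0.698-fold, adjusted p = 0.0133) to a level above it in miR-634 cells that did not pass the test (1.24-fold, adjusted p = 0.0755). The first of these calls was lost without miR-NC input array 2 (adjusted p = 0.0672) or miR-NC RIP array 1 (adjusted p = 0.0527). The second value passed the test without miR-634 RIP array 1 (log2 0.55, adjusted p = 0.000771), with the intensity trend, the authors' values, median scaling and the percentile over all probes (adjusted p = 0.0244 to 0.0429), and was below the input with spike-in scaling (log2 -1.17).

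HMGCS1, the cytosolic HMG-CoA synthase, was lower in the input. Its input level was -1.18 and -1.18 in miR-NC cells and -1.48 and -1.74 in miR-634 cells, a fall to 0.743-fold (adjusted p = 0.0157). That call was lost without either miR-NC input array (adjusted p = 0.0851 and 0.0786) and with no filter (adjusted p = 0.0869). In the RIP, HMGCS1 was at -0.76 and -0.81 in miR-NC cells and -0.97 and -0.91 in miR-634 cells, and this difference did not pass the test (0.898-fold, adjusted p = 0.136). HMGCS1 was enriched in both kinds of cells, 1.32-fold in miR-NC cells (adjusted p = 0.00458) and 1.59-fold in miR-634 cells (adjusted p = 0.000288). Its fold change of enrichment was 1.21 (adjusted p = 0.0814), or 0.49 above the median gene on the log2 scale, and it passed the test without 1 miR-634 input array (log2 0.40, adjusted p = 0.00794), and with the authors' values, median scaling or the percentile over all probes (adjusted p = 0.0342 to 0.0491). With spike-in scaling it was 2.60 (adjusted p = 4.98e-06).

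DHCR7, which reduces 7-dehydrocholesterol to cholesterol, was the only one of the 7 genes tested that rose in the input. The input of DHCR7 stood at 3.17 and 3.13 in miR-NC cells and 3.47 and 3.51 in miR-634 cells, and its RIP level 2.75 and 2.72 against 2.59 and 2.67. Neither pair of groups overlapped. The input rose 1.26-fold (adjusted p = 0.00555), and 681 genes rose more, whereas the RIP difference did not pass the test (0.933-fold, adjusted p = 0.103). The enrichment fell to 0.738-fold (log2 -0.44, SE 0.0694, adjusted p = 0.00144), which is -0.22 relative to the median gene on the log2 scale, although with spike-in scaling the value before this subtraction was 0.67. Most of this fall is the rise of the input, 0.34 on the log2 scale.

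FDFT1, the squalene synthase, and IDI1, which isomerizes isopentenyl diphosphate, were lower in the RIP. The input level of FDFT1 was 1.0 and 1.35 in miR-NC cells and 1.42 and 1.42 in miR-634 cells, with the miR-NC arrays far from each other. Its RIP level was 0.82 and 0.70 in miR-NC cells and 0.48 and 0.39 in miR-634 cells. The input difference did not pass the test (1.18-fold, adjusted p = 0.173), but did without miR-NC input array 2 (log2 0.42, adjusted p = 0.0369). The RIP fell to 0.797-fold (adjusted p = 0.0346), a call lost without any of 5 of the 8 arrays, and the enrichment to 0.673-fold (log2 -0.57, SE 0.16, adjusted p = 0.0172), or -0.35 relative to the median gene. That second call was lost without any of 3 arrays. With the authors' values and the percentile over all probes, both calls were lost, that of the RIP (adjusted p = 0.304 and 0.306) and that of enrichment (0.0571 and 0.0567). The RIP call was also lost with median scaling, the filter on the input arrays only and no filter (adjusted p = 0.054 to 0.0695). The RIP change was -0.15 relative to the median gene. With spike-in scaling the log2 fold changes of RIP and enrichment of FDFT1 were 0.54 (adjusted p = 0.0129) and 0.53.

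The input level of IDI1 was 0.04 and 0.06 in miR-NC cells and 0.00 and -0.21 in miR-634 cells. Its RIP level was -0.71 and -0.62 in miR-NC cells and -1.19 and -1.07 in miR-634 cells. The RIP groups of IDI1 were apart, and 1 miR-634 input array lay close to those of miR-NC cells. The RIP fell to 0.723-fold (adjusted p = 0.00209), -0.29 relative to the median gene, and with spike-in scaling it was 0.40 on the log2 scale. The fold change of enrichment of 0.803 was at the threshold (adjusted p = 0.0493), was -0.10 relative to the median gene, and lost its call without any of 6 of the 8 arrays; with spike-in scaling it was 0.79 on the log2 scale. IDI1 was below its input in both kinds of cells, at 0.612-fold and 0.492-fold (adjusted p = 0.000258 and 2.9e-05).

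**Figure D2:**
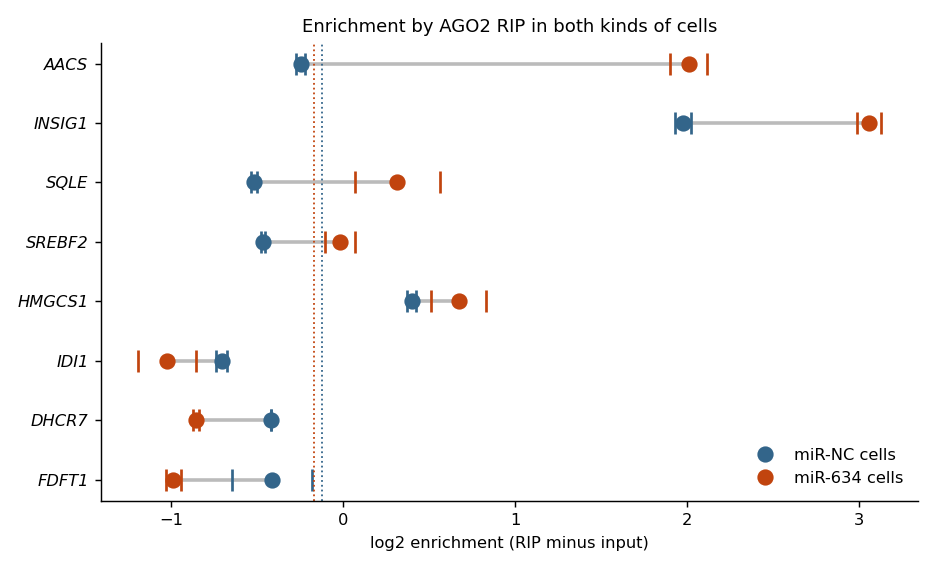
Enrichment (RIP minus input, log2) of the 8 genes in miR-NC cells (blue) and miR-634 cells (red), ordered by the difference; large points are the means of 2 arrays, ticks the values by array number, and dotted lines the median of all genes. AACS goes from -0.25 to 2.01 and INSIG1 from 1.97 to 3.06, while IDI1, DHCR7 and FDFT1 move to lower values.

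Between the kinds of cells, the input changes were small. Of the 7 genes tested, the input of DHCR7 rose, where 11.7% of all genes rose, and that of HMGCS1 and INSIG1 fell, where 12.1% fell. With spike-in scaling, DHCR7 did not pass the test (log2 0.10, adjusted p = 0.765). In the RIP, INSIG1, SQLE and SREBF2 rose, where 30.9% of all genes rose, and IDI1 and FDFT1 fell, where 46.5% fell; with spike-in scaling 6 rose and 0 fell. Within miR-NC cells, INSIG1 and HMGCS1 were enriched, where 33.6% of all genes were, and the other 5 genes tested were below their input, where 45.3% of all genes were; besides that of SQLE, the call of FDFT1 was lost without 1 array, miR-NC RIP array 2 (adjusted p = 0.0602). Within miR-634 cells, INSIG1 and HMGCS1 were enriched, where 36.1% of all genes were, and IDI1, FDFT1 and DHCR7 were below their input, where 48.3% were. These enrichments share no array with each other, but each shares its arrays with the fold change of enrichment. With spike-in scaling the enrichment of HMGCS1 was below 1 in both kinds of cells, as was that of the median gene.

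**Figure D3:**
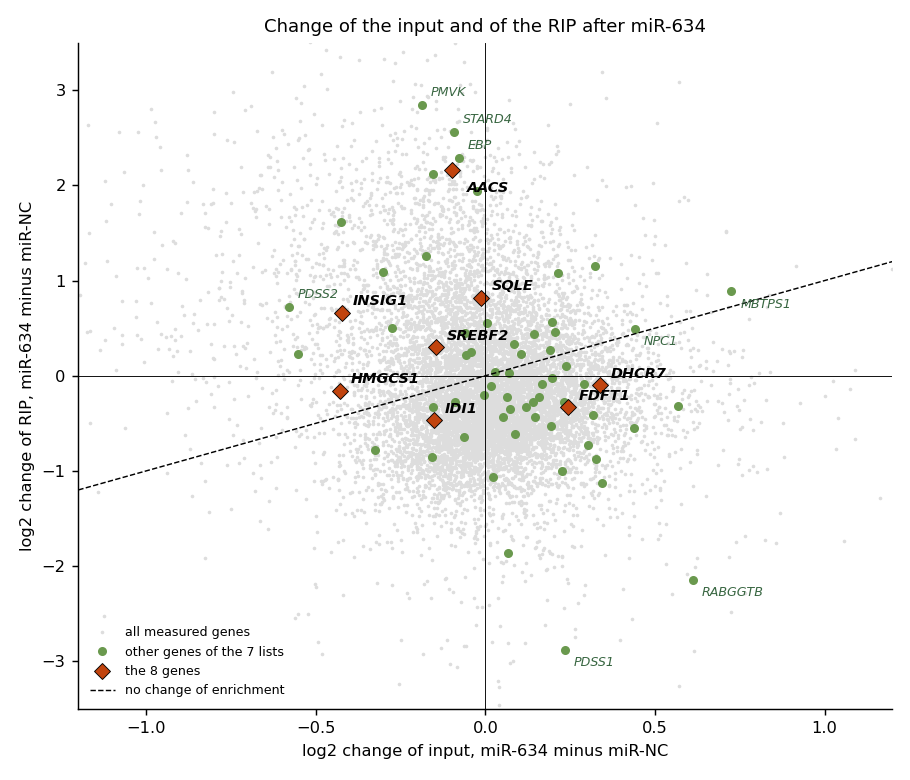
Change of the input (horizontal) and of the RIP (vertical) in miR-634 against miR-NC cells, both in log2, for the 8 genes (diamonds), the other genes of 7 lists (green) and all measured genes (grey, 30 of them beyond the axes). Genes above the dashed line have a fold change of enrichment over 1; AACS lies at -0.10 and 2.16, and HMGCS1 and INSIG1 lie to the left, at an input change of -0.43 and -0.42.

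To place the 8 genes among their pathway, 68 other genes were taken from 7 lists, of which 59 were measured. In the fold change of enrichment, 20 of the 59 rose, 25 fell and 14 did not pass the test, with a median of -0.17 on the log2 scale against -0.22 over all genes; with spike-in scaling 42 rose and 3 fell. Over all genes, 28.1% rose and 43.3% fell, and with spike-in scaling 7314 of the 10956 rose and 176 fell. In the RIP, 25 rose and 24 fell, where 30.9% of all genes rose and 46.5% fell. With spike-in scaling 44 rose and 3 fell, where 7271 of all genes rose and 357 fell. In the input, 17 rose and 3 fell, where 11.7% of all genes rose and 12.1% fell, with a median of 0.08 against -0.0041. Fewer than these 17 rose when any 1 of the 4 input arrays was left out, and fewer of all genes did too. With spike-in scaling 0 rose in the input, where 25 of all genes did.

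Of the 15 other synthesis enzymes measured, the enrichment of 9 rose and that of 4 fell, with a median of 0.78 on the log2 scale, where 28.1% of all genes rose and 43.3% fell, with a median of -0.22. With each array left out in turn, 9 rose and 3 or 4 fell, and with spike-in scaling 14 rose and none fell, where 7314 of the 10956 genes rose. The largest rise was that of PMVK, the phosphomevalonate kinase, 8.19-fold (log2 3.03, SE 0.26, adjusted p = 8.61e-05), followed by EBP, a sterol isomerase, 5.17-fold (log2 2.37, SE 0.0618, adjusted p = 9.34e-07). FDPS and HSD17B7, named after their values were seen, had fold changes of enrichment of 4.86 (adjusted p = 2.32e-06) and 3.91 (adjusted p = 2.32e-06).

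Of the 11 uptake and transport genes measured, the input of 6 rose and that of none fell, and the enrichment of 4 rose and that of 6 fell, where 11.7% of all genes rose in the input and 28.1% rose and 43.3% fell in enrichment. Fewer rose in the input when any 1 of the 4 input arrays was left out, as was so for all genes. With spike-in scaling none rose in the input, where 25 of the 10956 genes did. In enrichment, 4 rose and 4 fell with the authors' values, and 7 rose and none fell with spike-in scaling. Among all genes, 3289 rose and 3666 fell with the authors' values, and 7314 rose and 176 fell with spike-in scaling. NPC1, which exports cholesterol from lysosomes, rose in the input by 0.44 (adjusted p = 0.0041) and in the RIP by 0.49 (adjusted p = 0.000263) on the log2 scale, and its enrichment did not pass the test (1.04-fold, adjusted p = 0.579), but did with spike-in scaling (2.23-fold, adjusted p = 0.000139). STARD4, a sterol transfer protein, rose 6.30-fold in enrichment (log2 2.65, adjusted p = 2.31e-06).

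Of the 8 other genes of sterol sensing and SREBP processing, the input of 4 rose and that of none fell, and the enrichment of 1 rose and of 3 fell. Among all genes, 11.7% rose and 12.1% fell in the input, and 28.1% rose and 43.3% fell in enrichment. Fewer rose in the input when any 1 of the 4 input arrays was left out, as was so for all genes. With no filter 1 rose in the input, where 380 of 22434 genes did. With spike-in scaling none rose in the input, and 6 rose and none fell in enrichment. Of the 10956 genes, 25 rose in the input with that scaling, and 7314 rose and 176 fell in enrichment. MBTPS1, the protease that makes the first cut of SREBPs, rose by 0.72 in the input (adjusted p = 0.001) and by 0.89 in the RIP (adjusted p = 2.29e-05) on the log2 scale, and its enrichment did not pass the test (1.12-fold, adjusted p = 0.139). INSIG2, the partner of INSIG1 in function, rose in enrichment, 1.78-fold (adjusted p = 0.000377). For SCAP and SREBF1 the fold change of enrichment did not pass the test, at 1.06 (adjusted p = 0.354) and 1.09 (adjusted p = 0.181). SREBF1 turned to -0.17 on the log2 scale when its probes were averaged. With spike-in scaling, MBTPS1, SCAP and SREBF1 passed the test at 2.41-fold (adjusted p = 2.85e-05), 2.28-fold (adjusted p = 9.03e-05) and 2.35-fold (adjusted p = 4.92e-05).

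Of the 5 genes of acetoacetate and ketone body use measured other than AACS, 1 rose and 3 fell in enrichment, with a range of -1.93 to 0.37 on the log2 scale. The lowest was OXCT1, the enzyme that activates acetoacetate in mitochondria, named after its value was seen (0.262-fold, adjusted p = 8.66e-06). Of the 8 genes of the prenylation, dolichol and ubiquinone branches, 3 rose and 3 fell. PDSS1, a subunit of the enzyme that makes the ubiquinone side chain, had the lowest value of all lists (0.116-fold, log2 -3.11, adjusted p = 2.8e-06), and its partner PDSS2 rose 2.47-fold (adjusted p = 0.000251) while its input fell by 0.58 on the log2 scale (adjusted p = 0.00995), a call lost without miR-NC input array 2 (adjusted p = 0.0623) or miR-634 input array 2 (adjusted p = 0.0676), with no filter (adjusted p = 0.0605) and with the mean of its probes (log2 -0.25, adjusted p = 0.0676). RABGGTB, a subunit of the RAB prenyl transferase, fell by 2.76 on the log2 scale (SE 0.47, adjusted p = 0.00206), with -3.34 to -2.17 as each array was left out. Of the 9 genes of SREBP-regulated fatty acid synthesis, 2 rose and 4 fell, and FASN, the fatty acid synthase, again named after its value was seen, rose 4.10-fold (adjusted p = 4.79e-06). Of the 3 genes of efflux and esterification, none rose and 2 fell. These counts stand against 28.1% of all genes that rose and 43.3% that fell. With spike-in scaling, 3 rose and 1 fell in ketone body use, 6 rose and 2 fell in the prenylation branches, 5 rose and none fell in fatty acid synthesis, and 1 rose and none fell in efflux. Of the 10956 genes, 7314 rose and 176 fell in enrichment with that scaling.

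**Figure D4:**
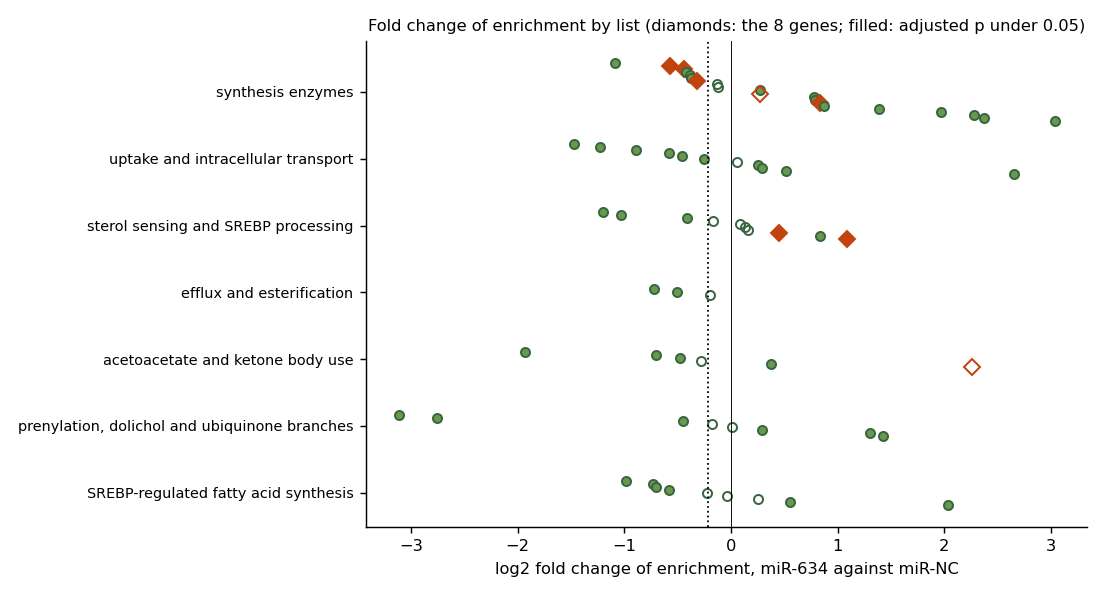
Fold change of enrichment (log2, horizontal) of every measured gene of the 7 lists (rows), with the 8 genes as diamonds, filled symbols for an adjusted p under 0.05, AACS drawn open because it was not tested, and the median of all genes as a dotted line. Synthesis enzymes spread from -1.09 to 3.03, and AACS, chosen by this value, is at 2.26.

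The genes with the pattern most like that of AACS over the 8 arrays, by the root mean square distance of levels centred on each gene's mean, were EEF1D (0.0693 on the log2 scale), EEF1A1 (0.0844) and LETMD1 (0.0857). EEF1D and EEF1A1 encode translation elongation factors. EEF1A1 has near-identical pseudogene copies, so its probe is uncertain. Their log2 fold changes of enrichment were 2.23, 2.40 and 2.22, against 2.26 for AACS. They were selected for this likeness, so their values restate the choice.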

How the data were processed

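For every array, the spot intensity as read by Agilent Feature Extraction was deposited, corrected for local background within the array and not scaled between arrays; the file headers give version 12.0.1.1 and the submitters' processing notes 9.1. The processed log2 values that the authors deposited beside it are scaled between arrays and centred per probe, and served only as an alternative.

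Outlier and control spots were left out, and the log2 of each probe's mean spot signal was used. No saturation was marked. Levels are relative to the 75th percentile of the array over the 16805 of 58201 probes (28.9%) well above background on all 8 arrays. A symbol was found for 31104 of the 33080 probes that carry a RefSeq accession, through the RefSeq table of GRCh38.p14. Each gene is represented by its brightest probe among those well above background on every array. Since this filter asks for signal in every group, genes seen in 1 group only are left out. All 8 genes passed it, with 8 of their 9 probes.

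The input, the RIP and the fold change of enrichment were tested with limma 3.58.1 (lmFit on the 4 group means, then eBayes; R 4.3.3), with Benjamini-Hochberg adjustment over the 10956 genes and a threshold of 0.05. The number of arrays limits the precision. The genes and the lists were chosen with earlier results of these data known. By rule, the text names the 8 genes, SREBF1, SCAP, INSIG2, up to 5 genes of the lists with the largest change in each comparison that passed the test and changed the same way by array number, the 3 genes nearest AACS, and APIP; some genes that the rule covers are not reported here. The scripts were tested on simulated data. Plots were drawn in matplotlib 3.10.9, from tables read with pandas 2.3.3 under Python 3.11.15.

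Alternatives for scaling were quantile normalization, with or without normexp (offset 50), the authors' processed values, the array median, the percentile over all probes and the 8 spike-in probes. Further alternatives were filtering on input arrays, no filter, averaging a gene's probes, fitting every probe, an intensity trend, a replicate block and leaving out each array. A slide block could not be fitted, as 1 slide and 1 scan held all arrays. The proteomic and other data of the study were not analysed here.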

Additional observations from a re-analysis of the deposited data

Results flagged for a closer look

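For AACS, SQLE, INSIG2, PMVK and EBP, the RIP was below the input on both arrays of miR-NC cells and above it on both arrays of miR-634 cells. This was not particular to them, since FDPS, HSD17B7 and further genes of the lists had it too. The share of all measured genes with this change of side was not counted. For AACS the difference between the kinds of cells, 2.26 on the log2 scale, was not tested, since AACS was chosen by it. The other log2 differences were 0.84 for SQLE, 0.83 for INSIG2, 3.03 for PMVK and 2.37 for EBP, and each passed the test given in the report. The test of the difference is not a test of the change of side, since in miR-634 cells SQLE (adjusted p = 0.0755) and INSIG2 (log2 0.03, adjusted p = 0.671) were not called above their input. In miR-NC cells PMVK was below its input by -0.59 on the log2 scale (adjusted p = 0.022, limma). That call was lost when any 1 miR-NC array was left out, with values of -0.64 to -0.54. With spike-in scaling, the enrichment of SQLE and of INSIG2 in miR-634 cells was below the input, at -1.17 and -1.45 on the log2 scale. The change of side was thus not seen for these genes with that scaling. With the mean of its probes, the enrichment of INSIG2 in miR-634 cells was 0.91 on the log2 scale (adjusted p = 4.93e-06, limma). The value of INSIG2 there thus depends on the probe.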

How the results depend on the processing

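The rises of enrichment of INSIG1, SQLE and SREBF2 kept their direction and their call under every alternative run, each array left out included, as did their rises in the RIP. The fall of the input of INSIG1 kept both too. The fall of enrichment of DHCR7 did so under all but spike-in scaling. With that scaling, the log2 fold changes of enrichment turned to 0.79 for IDI1, 0.53 for FDFT1 and 0.67 for DHCR7, and those of the RIP to 0.71 for HMGCS1, 0.40 for IDI1, 0.54 for FDFT1 and 0.76 for DHCR7. The input changes turned to -0.13 for SREBF1, -0.048 for SCAP and -0.0059 for PDSS1. The enrichment in miR-NC cells turned to -2.19 for HMGCS1 and -0.61 for INSIG1, and that in miR-634 cells to -0.81 for HMGCS1, -1.17 for SQLE and -1.45 for INSIG2. These turns go with the shift of the median gene given in the report. The enrichment of SREBF2 in miR-634 cells kept its sign with that scaling, but moved to -1.5 and passed the test (adjusted p = 2.06e-13, limma).

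With spike-in scaling, of the 7 genes tested 6 rose and 0 fell in enrichment and 6 rose and 0 fell in the RIP, and 0 rose in the input. Of the other genes of the lists, 42 rose and 3 fell in enrichment, 44 rose and 3 fell in the RIP, and 0 rose in the input. Of all 10956 genes, 7314 rose and 176 fell in enrichment, 7271 rose and 357 fell in the RIP, and 25 rose in the input.

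Of the 7 genes, 1 fell in enrichment with the authors' values and with the percentile over all probes. In the RIP, 1 fell with these settings, with median scaling, with the filter on the input arrays only and with no filter. In the input, 1 fell with no filter. Of the other genes of the lists, 10 rose in the input with the authors' values, with the percentile over all probes and with the filter on the input arrays only, and 3 with no filter, while 5 fell with the intensity trend. Among all genes, 1071, 1070, 913 and 380 rose in the input with these settings, in that order, and 1510 fell with the intensity trend. The cause of these differences was not tested. With each array left out, of the 7 genes 1 to 2 rose and 1 to 2 fell in the input, 1 to 2 fell in the RIP and 1 to 2 fell in enrichment. Of the other genes of the lists, 3 to 18 rose in the input, 3 without miR-NC input array 1, 6 without miR-NC input array 2, 5 without miR-634 input array 1 and 3 without miR-634 input array 2.

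The following values close to 0 changed sign without passing the test in either fit. The input change of SQLE was 0.0189 with quantile normalization, 0.0169 with normexp, 0.0400 with the authors' values and 0.0413 with the percentile over all probes, and -0.069 to 0.0418 with each array left out. The input change of STARD4 was 0.0146 with normexp. The RIP change of HMGCS1 was 0.0173 and that of DHCR7 0.0726 with the authors' values, and 0.0181 and 0.0734 with the percentile over all probes. The enrichment of SREBF2 in miR-634 cells was 0.0046 with normexp, 0.0903 with the authors' values, 0.0911 with the percentile over all probes, 0.0766 with median scaling, and -0.0667 to 0.0309 with each array left out. The enrichment change of NPC1 was -0.0187 to 0.125 with each array left out. Apart from these, with the mean of its probes SREBF1, which had risen by 0.23 in the RIP (adjusted p = 0.00712), turned to -0.0755 there and lost its call, and its enrichment change turned to -0.17, past the test in neither fit.

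The main fit did not pair arrays by number. Same-numbered arrays of different groups deviated with r of -0.04 to 0.08 over genes. The highest values were those of input and RIP of the same cells, 0.0739 in miR-NC and 0.0839 in miR-634 cells. These low values cannot tell whether a same-numbered input and RIP came from the same lysate. With the replicate block, 3069 genes rose and 4734 fell in enrichment, and of the 7 genes 1 fell in the RIP in place of 2, FDFT1 having an adjusted p of 0.0516, and IDI1 had an adjusted p of 0.073 in enrichment. Signal over background limits the second AACS probe.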
